A study of Mus musculus with 24 samples.

Results

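Transcripts of 10 epithelial genes, 7 keratins and 3 small proline-rich proteins (Sprr), were followed in 24 RNA-seq libraries of whole kidneys from C57BL/6 mice (C57BL/6J in the study's methods) of 18 days, 1 library per mouse. Krt7, Krt8, Krt5, Krt18, Krt19, Krt20, Krt23, Sprr1a, Sprr2f and Sprr2g were picked from the 54532 rows of the count table by gene symbol. They were selected on earlier measurements of the same libraries, in which Sprr2g was among the largest increases of unedited cystic kidneys and among the largest decreases of cystic kidneys of the D18 line. Every mouse had 1 RC allele, a missense form of Pkd1, the gene that encodes polycystin-1. In RC/+ mice, labelled control, the other allele was floxed and there was no Cre. In RC/- mice, labelled cystic, Ksp-Cre, driven by the Cdh16 promoter of the distal nephron and collecting duct, inactivated that floxed allele, so Cre and the cystic genotype cannot be told apart. D18 (founder 3) and D53 (founder 2) are lines whose RC allele lacks the miR-17 motif of the Pkd1 3′ UTR. Each line descends from 1 founder. The groups were RC/+, RC/+ D18 and RC/+ D53 with 3 mice each, and RC/-, RC/- D18 and RC/- D53 with 5 mice each.

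Keratins are the intermediate filament proteins of epithelia and assemble only as pairs of a type I and a type II chain. Simple epithelia of kidney ducts make mainly Krt8 and Krt7 (type II) with Krt18 and Krt19 (type I), stratified epithelia use Krt5 in their basal layer, and Krt20 marks the umbrella cells of the urothelium and appears in injured tubules. Small proline-rich proteins are crosslinked by transglutaminases into the cornified envelope of skin and are induced in many stressed epithelia.

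The type II keratin genes lie together on chromosome 15, the type I genes on chromosome 11 and the Sprr genes on chromosome 3, with Krt18, the only type I gene outside the type I cluster, beside Krt8. In GRCm38 the genes span chr15:101411043-101430313 (Krt7, plus strand), chr15:101996698-102004482 (Krt8, minus), chr15:101707070-101712898 (Krt5, minus), chr15:102028180-102032027 (Krt18, plus), chr11:100140810-100148665 (Krt19, minus), chr11:99428403-99438150 (Krt20, minus) and chr11:99477974-99493137 (Krt23, minus). The Sprr genes span chr3:92483952-92485895 (Sprr1a, minus), chr3:92365187-92366442 (Sprr2f, plus) and chr3:92373915-92375229 (Sprr2g, plus), so Sprr2f and Sprr2g are neighbours. Sprr2g is annotated as a polymorphic pseudogene, and its reads are counted here as transcripts of that locus. Of the exon sequence of Krt8, 17.1% of all windows of 100 bases were shared with Krt8-ps or Gm36026. For Krt5 3.81% were shared with Krt6a, Gm5478 or Gm44323, while the other 8 members shared none. Gm36026, Gm44323 and Gm671 lie on the opposite strand and overlap 5.16%, 5.87% and 1.09% of the exon bases of Krt8, Krt5 and Krt7. Krt8-ps itself held 0.361 to 1.95 CPM. Gene names and positions are those of GENCODE M21.

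RefSeq promoter sequences (GRCm38.p6) matched 8 of the 10 members, Krt19 and Sprr2g being the exceptions. The 250 bases before the annotated start are printed for the 3 members below because they hold a TATA box, spelled TATAAA, or the AP-1 motif TGANTCA, the site of Fos and Jun dimers. Capitals mark these matches, and each sequence runs 5′ to 3′ on the strand of its gene.
Sprr1a (chr3:92485882-92486131, minus): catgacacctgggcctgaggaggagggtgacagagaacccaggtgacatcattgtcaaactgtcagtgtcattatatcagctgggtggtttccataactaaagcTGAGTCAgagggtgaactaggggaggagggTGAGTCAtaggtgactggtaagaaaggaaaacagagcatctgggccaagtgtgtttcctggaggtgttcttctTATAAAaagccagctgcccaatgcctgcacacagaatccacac
Sprr2f (chr3:92364937-92365186, plus): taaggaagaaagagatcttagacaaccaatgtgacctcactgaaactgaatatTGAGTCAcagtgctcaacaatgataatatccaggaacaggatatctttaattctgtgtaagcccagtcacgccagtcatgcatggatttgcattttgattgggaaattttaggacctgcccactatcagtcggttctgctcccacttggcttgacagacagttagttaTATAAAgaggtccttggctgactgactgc
Krt20 (chr11:99438154-99438403, minus): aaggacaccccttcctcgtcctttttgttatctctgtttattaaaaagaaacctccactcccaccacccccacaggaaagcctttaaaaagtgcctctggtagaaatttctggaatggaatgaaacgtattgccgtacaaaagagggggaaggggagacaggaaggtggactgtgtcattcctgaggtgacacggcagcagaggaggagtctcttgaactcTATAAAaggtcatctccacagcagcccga
Over the window from 250 bases before to 50 bases after the start, the AP-1 motif, which reads the same on both strands, occurred 2 times in Sprr1a, 1 time in Sprr2f and in no other member, and 7.81% of 32851 promoters held it. TATAAA on either strand occurred in Sprr1a, Sprr2f, Krt20 and, as 2 overlapping matches at the start itself, in Krt8, against 13.6% of all promoters. The STAT motif TTCNNNGAA was in none of the 8 windows and in 8.30% of all. A match describes letters and is no evidence of binding.

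Libraries held 20.4 to 30.8 M counts, and levels are given in CPM, the count divided by the library's total in M. As a check of the tissue, 8 proximal tubule genes, Lrp2 and Cubn among them, summed to 1689.9 CPM or more and 8 collecting duct principal cell genes, Aqp2 among them, to 1018 CPM or more in every library. These sums moved with the genotype: from RC/+ to RC/- the proximal tubule mean went from 7448 to 2893 CPM, the collecting duct mean from 1267 to 3671 CPM and that of 6 macrophage genes from 216 to 529 CPM. In RC/- D18 and RC/- D53 the means were 7730.2 and 5982, 1607 and 2265, and 277 and 327 CPM. Their controls RC/+ D18 and RC/+ D53 had 8745 and 7300, 1500 and 1088, and 230 and 221 CPM. Marker means thus differed between groups that are compared below, and their part in the members' differences was not tested. In libraries 20 to 27 (replicates 20 to 22 of RC/- D18 and every replicate of RC/- D53) 6 skeletal muscle genes summed to 147 to 194 CPM, against 5.27 to 9.36 CPM in the other libraries. This set holds no RC/+ library and every RC/- D53 library, so within the D53 line the set and the genotype cannot be told apart. Urothelium markers (Upk1a, Upk1b, Upk2, Upk3a, Psca, Trp63 and Snx31) varied within every group, and their sum was lowest in RC/- replicate 15 at 21.2 CPM and highest in RC/- replicate 16 at 234 CPM. Fewer cells of a type and less RNA per cell cannot be told apart in whole kidneys.

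Because unedited libraries were used to choose the members, every difference that involves them is given as a description with no test. Tests are limma-trend tests of differences among edited groups, on log2 CPM and adjusted over the 22570 genes that passed an expression limit (mean log2 CPM of at least -3). The expression limit and the spread behind each SE and p were taken over all 24 libraries, unedited ones included. All 10 members passed it. The choice also drew on RC/- D18 for Sprr2g, which bears on each of its tests that use that group. The members took 0.227% ± 0.0227 of all counts in RC/- (SD, n = 5), against group means of 0.0608% to 0.0680% in RC/+ kidneys of the 3 lines, 0.0703% ± 0.00461 in RC/- D18 (SD, n = 5) and 0.0961% ± 0.0138 in RC/- D53 (SD, n = 5).

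Krt8, the type II partner that simple epithelia use first, was measured at 603, 654, 737, 672 and 678 CPM in the RC/- replicates and at 214, 239 and 225 CPM in RC/+. In the D18 line it was 253, 228, 236, 241 and 209 CPM in RC/- and 184, 199.8 and 219.8 CPM in RC/+. In the D53 line it was 289, 323, 309.7, 289 and 387 CPM in RC/- and 204, 216 and 233 CPM in RC/+. RC/- and RC/+ libraries did not overlap in the unedited and D53 mice, and overlapped in D18. The unedited log2 difference was 1.57 (SE 0.0878), and with TMM or DESeq2 scaling it was 1.43, as the median over all genes moved from 0.14 to 0.01 and 0.02. In the D53 line Krt8 rose by 0.55 on the log2 scale (SE 0.0878, limma adjusted p = 0.000474), 1.46-fold, while the D18 line gave 0.21 (adjusted p = 0.455).

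Krt7, a type II keratin of ducts and glands, was the member with the most counts, 5802 to 23456 per library. Its levels were 616, 684, 932, 731 and 782 CPM in RC/- and 251, 310.0 and 295 CPM in RC/+. RC/- D18 replicates held 326, 304, 279, 287 and 293 CPM against 253, 298 and 296 CPM in RC/+ D18, and the groups overlapped. RC/- D53 replicates held 361, 407, 353, 374 and 425 CPM, all above the 252, 262 and 291 CPM of RC/+ D53. The log2 difference was 1.38 in unedited mice, 0.08 in the D18 line (SE 0.102, limma adjusted p = 0.903) and 0.52 in the D53 line (SE 0.102, adjusted p = 0.00400).

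Krt18, the type I partner of Krt8, was 430.0, 471, 545, 508 and 552 CPM in RC/- and 63.5, 98.2 and 86.3 CPM in RC/+, a log2 difference of 2.62, where Krt8 had 1.57. RC/- D18 replicates held 111, 80.3, 109, 101 and 84.0 CPM against 66.0, 59.0 and 81.6 CPM in RC/+ D18. Only replicate 19 of RC/- D18 lay within the range of its controls. RC/- D53 replicates held 139, 159, 164, 137 and 231 CPM, all above the 60.6, 68.3 and 73.2 CPM of RC/+ D53. Krt18 rose 2.42-fold in the D53 line (log2 1.28, SE 0.155, limma adjusted p = 2.73e-05) and differed by 0.49 in the D18 line (SE 0.155, adjusted p = 0.259). Replicate 27 was highest of RC/- D53, and without it the D53 difference was 1.15 (adjusted p = 3.59e-05).

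Krt19, the smallest keratin, which lacks most of the tail domain, was 189, 203, 183, 203 and 243 CPM in RC/- and 28.6, 49.9 and 43.5 CPM in RC/+, a log2 difference of 2.36. RC/- D53 replicates held 47.5, 45.6, 46.1, 37.2 and 91.4 CPM, all above the 30.5, 24.5 and 32.8 CPM of RC/+ D53, but the difference of 0.80 did not pass the test (SE 0.236, limma adjusted p = 0.0716). RC/- D18 replicates spread from 22.4 to 47.3 CPM and overlapped the 25.3 to 38.2 CPM of RC/+ D18, with a difference of 0.12 (adjusted p = 0.948).

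**Figure D1:**
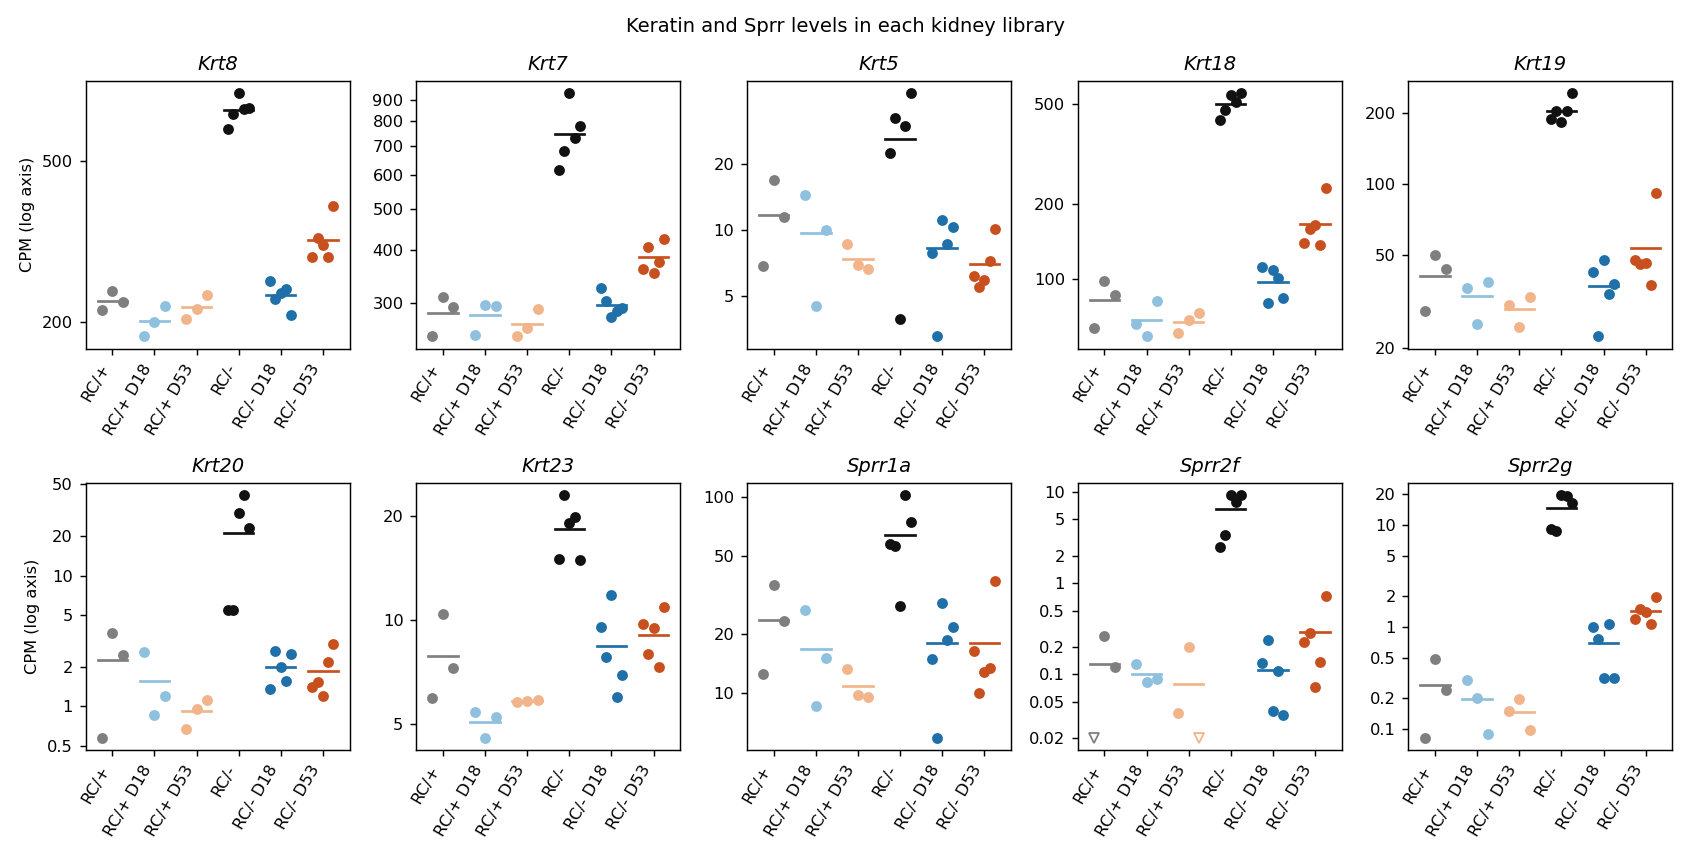
Levels of the 10 members in CPM, on log axes, with 1 point per library and a bar at the mean of each of the 6 groups; open triangles at 0.02 CPM stand for libraries with 0 counts. RC/- points lie above the RC/+ points of the unedited mice for 8 members, with Krt5 and Sprr1a as the exceptions, and RC/- D18 and RC/- D53 lie far below RC/- for Krt20, Sprr2f and Sprr2g.

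Since type I and type II chains pair, the ratio of Krt18 to Krt8 was taken from CPM per kb of exon. It was 0.973 to 1.11 in the RC/- replicates and 0.405 to 0.560 in RC/+. The 5 RC/- D53 replicates had 0.645 to 0.812 against 0.406 to 0.431 in RC/+ D53, and RC/- D18 had 0.480 to 0.630 against 0.402 to 0.506 in RC/+ D18. So Krt18 and Krt8 transcripts were near 1 to 1 per length in unedited cystic kidneys, and Krt8 was in excess in each other group. Summed over all type I and all type II keratin genes, the ratio was 1.10 ± 0.0815 in RC/- and 0.604 ± 0.0807 in RC/+ (SD, n = 5 and n = 3). In RC/- D18 it was 0.620 ± 0.0821 (SD, n = 5) and in RC/- D53 0.721 ± 0.0980 (SD, n = 5), with 0.549 ± 0.0808 (SD, n = 3) and 0.517 ± 0.00952 (SD, n = 3) in their RC/+ groups. These ratios were not tested, and the Krt8 windows that other loci share lower its count if reads with several matches were dropped. The Krt7 model joins 5 transcripts over 7049 bases, so its level per length, 106 CPM per kb in RC/-, is a low estimate beside the 342 of Krt8 and 349 of Krt18. Krt7 is part of the type II sum, 469 CPM per kb in RC/-, so the summed ratio of type I to type II is a high estimate. Its value near 1 in RC/- therefore depends on the length taken for Krt7.

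**Figure D2:**
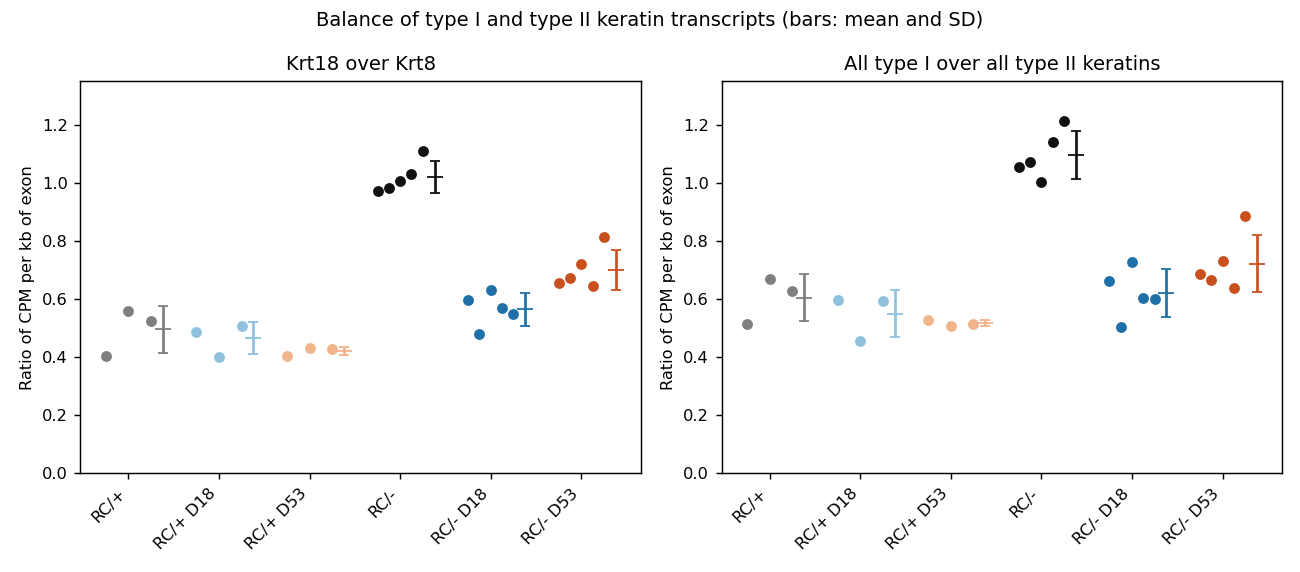
Ratio of Krt18 to Krt8 (left) and of all type I to all type II keratin transcripts (right), from CPM per kb of exon on linear axes, 1 point per library with the mean and SD of each group beside it. RC/- libraries stand at 0.973 to 1.11 for Krt18 over Krt8, RC/- D53 at 0.645 to 0.812 and the RC/+ libraries of all lines at 0.402 to 0.560. The right-hand ratio is a high estimate, because the long Krt7 model lowers the type II sum.

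Krt20 split the RC/- mice. Replicates 13 and 14 held 5.43 and 5.45 CPM (127 and 129 counts), and replicates 15, 16 and 17 held 30.0, 41.5 and 23.2 CPM (525 to 989 counts). RC/+ replicates held 0.572, 3.67 and 2.49 CPM, so all RC/- libraries were above them and the log2 difference was 3.07. In edited mice Krt20 was low, with 1.36 to 2.64 CPM in RC/- D18 and 1.21 to 2.99 CPM in RC/- D53, against 0.856 to 2.61 CPM and 0.676 to 1.13 CPM in their controls. The differences of 0.46 in the D18 line and 0.92 in the D53 line had SE 0.580 and did not pass (limma adjusted p = 0.903 and 0.543), although no RC/- D53 library reached down to its controls. That SE also draws on the spread among the unedited libraries.

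Krt23, a type I keratin of glandular epithelia, was above the controls in both edited lines. It was 15.01, 23.1, 19.2, 19.9 and 14.95 CPM in RC/- and 5.96, 10.4 and 7.27 CPM in RC/+. RC/- D18 replicates held 9.55, 7.86, 11.8, 6.00 and 6.96 CPM, all above the 5.44, 4.56 and 5.27 CPM of RC/+ D18. RC/- D53 replicates held 9.73, 7.98, 9.53, 7.32 and 10.9 CPM, all above the 5.82, 5.84 and 5.89 CPM of RC/+ D53. The log2 differences were 0.68 and 0.62 (SE 0.195 each), which did not pass singly (limma adjusted p = 0.197 and 0.103), and their mean of 0.65 did (SE 0.138, adjusted p = 0.00521).

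Sprr2g had the widest unedited difference of the members. RC/+ replicates held 2, 11 and 6 counts and RC/- replicates 216, 208, 499, 459 and 369, which is 0.0817 to 0.487 CPM against 8.78 to 19.8 CPM. The fitted log2 difference was 5.49 with a prior count of 2 and 5.86 with 0.5. RC/- D18 replicates held 23, 16, 8, 30 and 9 counts (1.01, 0.767, 0.314, 1.08 and 0.320 CPM), and RC/+ D18 replicates held 7, 5 and 2 (0.305, 0.204 and 0.0893 CPM). RC/- D53 replicates held 37, 37, 38, 31 and 55 counts (1.20, 1.51, 1.39, 1.07 and 1.98 CPM), and RC/+ D53 replicates held 4, 5 and 2 (0.150, 0.197 and 0.0981 CPM). Neither edited line overlapped with its controls. Sprr2g rose 6.57-fold in the D53 line (log2 2.72, SE 0.418, limma adjusted p = 0.000314). The size depended on the fit, with log2 3.12 at a prior count of 0.5, 3.15 by edgeR, 3.19 by DESeq2 and 3.47 with libraries 20 to 27 as a covariate. It differed by 1.40 in the D18 line (SE 0.418, adjusted p = 0.225).

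Sprr2f, its neighbour, was at the limit of detection outside unedited cystic kidneys. RC/- replicates held 58, 80, 233, 184 and 209 counts, or 2.48 to 9.25 CPM, and RC/+ replicates held 0, 6 and 3. A count of 0 in RC/+ replicate 4 allows up to 0.122 CPM and in RC/+ D53 replicate 12 up to 0.147 CPM, counting error only. In edited mice the counts were 3, 5, 1, 3 and 1 in RC/- D18, 7, 7, 2, 4 and 20 in RC/- D53, 3, 2 and 2 in RC/+ D18 and 1, 5 and 0 in RC/+ D53. The difference in the D53 line, 1.18 (SE 0.550), did not pass (limma adjusted p = 0.346), and in the D18 line it was -0.01 (adjusted p = 0.997). The ratio of Sprr2g to Sprr2f per length was 1.65 to 3.48 in RC/-, 2.99 to 9.35 in RC/- D18 and 2.57 to 17.8 in RC/- D53. These ranges overlap, the edited ones rest on few Sprr2f counts, and they were not tested.

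Krt5 and Sprr1a were the members whose RC/- and RC/+ libraries overlapped in unedited mice. Krt5, the basal cell keratin, was 22.3, 32.3, 3.93, 29.7 and 41.9 CPM in RC/- and 6.82, 16.8 and 11.4 CPM in RC/+. The low RC/- library, replicate 15, was the one with the least urothelium signal (21.2 CPM, the others 119 to 234 CPM), and it held 99 Krt5 counts where the other 4 held 521 to 947. Sprr1a, which is crosslinked early into the envelope, was 57.5, 56.4, 27.8, 102 and 74.4 CPM in RC/- and 12.5, 35.5 and 23.2 CPM in RC/+, again lowest in replicate 15. In that same library Krt7, Krt8 and Sprr2g were at their highest among all mice, with 932, 737 and 19.8 CPM, and Krt18 was at 545 CPM. RC/- D18 replicate 19, with 29.5 CPM of urothelium markers, likewise had the lowest Krt5 (3.26 CPM) and Sprr1a (5.89 CPM) of its group.

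For Krt5, Krt19 and Sprr1a the library lowest in its group was also the lowest in urothelium markers in 5 of 6 groups, against 1 of 6 for Krt7, Krt8 and Sprr2g, 2 of 6 for Krt20, Krt23 and Sprr2f and 3 of 6 for Krt18. The highest library matched in 5 of 6 groups for Krt20, Krt23 and Sprr1a, in 4 of 6 for Krt5 and Krt19 and in 3 of 6 for the other 5 members. In groups of 3 or 5 libraries some matches arise by chance, and these counts were not tested. None of the 7 urothelium markers was at 0 in any group. Their summed level was 29.5 to 106 CPM in RC/- D18 against 42.7 to 96.5 CPM in RC/+ D18, and 40.7 to 123 CPM in RC/- D53 against 51.3 to 59.4 CPM in RC/+ D53. In unedited mice the sum was 21.2 to 234 CPM in RC/- and 53.1 to 126 CPM in RC/+, with means of 159 and 93.7 CPM. No urothelium marker passed in the mean of both edited lines, where 4.01% of all genes rose. The count was 0 of 7 by limma, 0 at p below 0.05, 0 by edgeR and 0 by DESeq2. The part of urothelium in the members' levels was not tested. Neither Krt5 (-0.19 and -0.11) nor Sprr1a (0.08 and 0.58) passed in the D18 or D53 line, with SE of 0.527 and 0.468 (limma adjusted p = 0.666 or more).

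**Figure D3:**
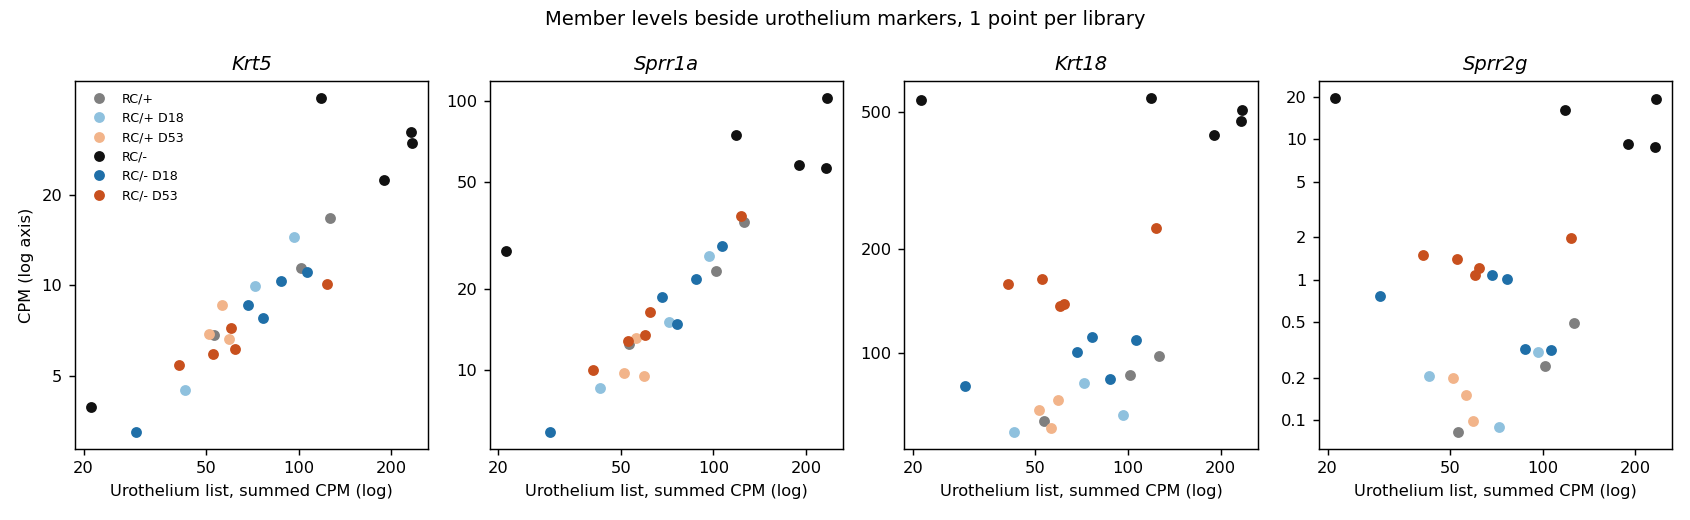
Level of Krt5, Sprr1a, Krt18 and Sprr2g in CPM against the summed CPM of 7 urothelium markers, both on log axes, 1 point per library coloured by group. RC/- replicate 15 is the leftmost black point at 21.2 CPM of urothelium markers, where Krt5 is 3.93 CPM while Krt18 is 545 CPM and Sprr2g 19.8 CPM.

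Within the D18 line no member passed the test of RC/- against RC/+, where 0.266% of all genes did. By limma 4 of 10 members, Krt8, Krt18, Krt23 and Sprr2g, had an unadjusted p below 0.05, as did 2011 of 22570 genes, and edgeR and DESeq2 called 0 members. The median of the 10 differences was 0.17, beside 0.04 over all genes. For Krt23 and Sprr2g every RC/- D18 library was above every RC/+ D18 library, which held for 3.85% of all genes. Sprr2g was chosen in part on RC/- D18.

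Within the D53 line 4 of 10 members rose and none fell: Krt7, Krt8, Krt18 and Sprr2g, where 2.45% of all genes rose. The median difference of the members was 0.71, beside 0.04 over all genes, and 9 of 10 were positive. For 7 members (the same 4 with Krt19, Krt20 and Krt23) all RC/- D53 libraries were above all RC/+ D53 libraries, which held for 8.12% of genes. With libraries 20 to 27 as a covariate, whose effect only RC/- D18 informs, the same 4 members passed (adjusted p = 0.0133 to 0.0476). The collecting duct markers Scnn1b, Scnn1g, Fxyd4 and Hsd11b2 rose alongside, as 4 of 8 in that list, by 0.96 to 1.22, and their part in the keratin change was not tested.

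In the mean of both edited lines, 10 RC/- against 6 RC/+ libraries, 5 of 10 members rose, where 4.01% of all genes did. Sprr2g, among these 5, was chosen in part on RC/- D18, which enters the mean. Krt18 rose by 0.89 (SE 0.110, limma adjusted p = 1.52e-05), Sprr2g by 2.06 (SE 0.295, adjusted p = 8.64e-05), Krt8 by 0.38 (SE 0.0621, adjusted p = 0.000354), Krt23 by 0.65 and Krt7 by 0.30 (SE 0.0724, adjusted p = 0.0156). Krt7 was the least firm: without RC/+ D18 replicate 7 its adjusted p was 0.0688 and without RC/+ D53 replicate 10 it was 0.0520, and edgeR gave 0.0619. With libraries 20 to 27 as a covariate 3 of the 5 passed, Krt8, Krt18 and Sprr2g, while Krt7 and Krt23 had limma adjusted p of 0.0898 and 0.104. Krt19 differed by 0.46 (SE 0.167, adjusted p = 0.123), and Krt20, Krt5, Sprr1a and Sprr2f had adjusted p of 0.431 or more.

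**Figure D4:**
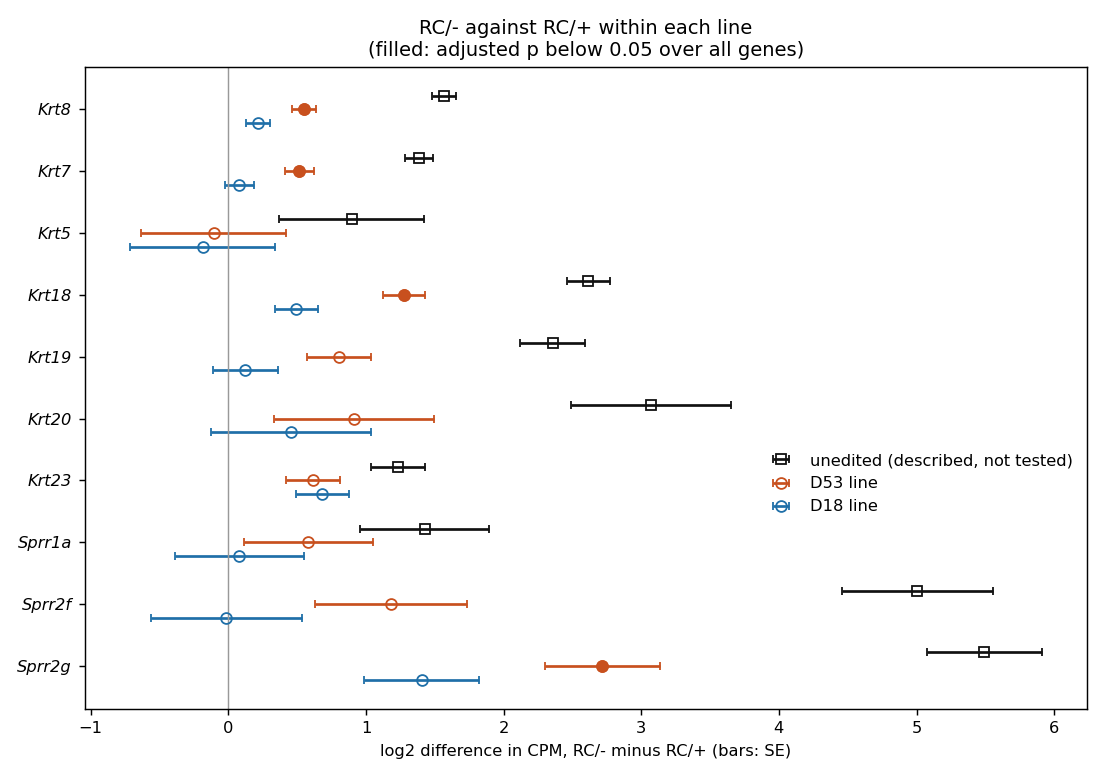
Log2 difference in CPM between RC/- and RC/+ kidneys with its SE for each member, in unedited mice (squares, described and not tested), the D53 line and the D18 line (circles, filled where the adjusted p over all genes was below 0.05). The order of unedited above D53 above D18 holds for 9 members, and Krt23 has 0.62 in D53 and 0.68 in D18.

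Between cystic kidneys of the edited lines, Krt8 was higher in RC/- D53 than in RC/- D18 by 0.45 (SE 0.0761, limma adjusted p = 0.00913) and Krt18 by 0.76 (SE 0.134, adjusted p = 0.00994). These 2 of 10 members rose, where 0.244% of all genes did. Krt7 differed by 0.36 without passing (SE 0.0887, adjusted p = 0.0808). For Krt7, Krt8 and Krt18 every RC/- D53 library was above every RC/- D18 library, which held for 1.94% of genes. In the controls no member passed between RC/+ D53 and RC/+ D18 (limma; 0 at p below 0.05; 0 by edgeR and by DESeq2), where 0.00443% of all genes did. Krt23 was the member whose RC/+ D53 libraries (5.82 to 5.89 CPM) all lay above RC/+ D18 (4.56 to 5.44 CPM). Its difference was 0.20 (SE 0.218, limma adjusted p = 0.891), and the share of all genes separated in this way was not counted. When only libraries 20 to 27 were compared, Krt8 and Krt18 differed by 0.48 and 0.74, and adjusted p was 0.0751 and 0.0689.

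Whether the cystic difference was larger in the D53 than in the D18 line was tested directly. No member passed, and 0.0% of all genes did, by limma, edgeR and DESeq2. At an unadjusted p below 0.05 there were 4 members, Krt18 (0.78, SE 0.220), Krt7 (0.44, SE 0.145), Krt8 (0.33, SE 0.124) and Sprr2g (1.31, SE 0.591), each larger in D53, beside 884 of 22570 genes. The choice of Sprr2g drew on its low RC/- D18 level, which enters this difference, so its value is no independent support.

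Against unedited cystic kidneys all 10 members were lower in both edited lines. The same RC/- libraries enter these differences and those from RC/+, so each is given on its own. In RC/- D18 the log2 differences from RC/- were -5.003 for Sprr2f, -4.31 for Sprr2g, -2.93 for Krt20, -2.51 for Krt19 and -2.37 for Krt18, and between -1.87 and -1.14 for the other 5. In RC/- D53 they were -4.18 for Sprr2f, -3.23 for Sprr2g, -3.07 for Krt20, -1.997 for Krt19 and -1.62 for Krt18, and between -1.86 and -0.95 for the rest. For 8 members every RC/- D18 library was below every RC/- library, and likewise for RC/- D53, where 18.8% and 11.8% of all genes were. From RC/+ to RC/- 8 members had every library above, where 26% of genes did. Among control kidneys, RC/+ D18 and RC/+ D53 overlapped with RC/+ for 9 members, and Krt23 was lower in both (-0.59 and -0.39). Neither Krt23 value is independent of the other, because each was taken against those RC/+ mice. With 3 libraries per control group, full separation can arise by chance, and how often other genes showed it was not counted.

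In RC/- the other type I keratins summed to a mean of 57.8 CPM and the other type II keratins to 45.1 CPM. Each sum was below the mean of Krt7, Krt8, Krt18 or Krt19 alone, but single genes were not all below Krt5, Krt20 and Krt23. Of 23 other type I genes 11 passed the expression limit. In the mean of both edited lines, where 4.01% of all genes rose, 1 of them rose. It was Krt13, by 0.80 (SE 0.228, limma adjusted p = 0.0419), a call that DESeq2 also made and edgeR did not. Krt13 was 5.59 CPM in RC/- D53 replicate 27 and 1.75 to 2.52 CPM in the other 4 replicates. Of 20 other type II genes 9 passed the limit and 1 rose, Krt80, a keratin of epithelial cell edges, by 0.81 (SE 0.0842, adjusted p = 1.71e-06). Krt80 was 31.9 to 49.1 CPM in RC/- and 11.6 to 12.6 CPM in RC/+, and 15.1 to 19.3 CPM in RC/- D18 against 8.84 to 12.6 CPM in RC/+ D18. In the D53 line it was 18.8 to 20.6 CPM in RC/- and 10.1 to 11.2 CPM in RC/+, with no overlap in any line. Krt14 and Krt15, the type I keratins of basal cells, had the highest RC/- level of the other type I genes. In RC/- replicate 15 they were 7.03 and 4.69 CPM, against 13.6 to 46.3 and 17.3 to 32.1 CPM in the other 4 replicates, so that library was lowest for them as it was for Krt5. Of 12 other Sprr genes only Sprr2a3 passed the expression limit, with 0.0794 to 6.77 CPM in RC/- and a difference of 0.34 in the edited lines (SE 0.691, adjusted p = 0.874).

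Genes that anchor keratin filaments to junctions were counted next. In the mean of both edited lines 4 of 12 rose by limma, where 4.01% of all genes rose. Itgb4, the hemidesmosome integrin, rose by 0.93 (limma adjusted p = 3.24e-07) and desmoplakin Dsp by 0.84 (adjusted p = 1.36e-06). The desmosomal cadherin Dsc2 rose by 0.70 (limma adjusted p = 0.000194) and plectin Plec by 0.31 (adjusted p = 0.0241). The median of the 12 was 0.17, beside 0.04 over all genes. Of 11 tested genes of the cornified envelope 1 rose, beside the same 4.01% of all genes. It was periplakin Ppl, by 0.59 (SE 0.139, limma adjusted p = 0.0123), and the median of the 11 was 0.16. Involucrin (Ivl) differed by 0.53 (SE 0.646, adjusted p = 0.760) and loricrin (Lor) by 0.02 (SE 0.167, adjusted p = 0.970), values named after they were seen. Of 10 other intermediate filament genes, vimentin and the lamins included, none passed by limma, edgeR or DESeq2, with 3 at p below 0.05, and their median was 0.15.

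Of 14 transcription factor genes of the AP-1, Elf, Klf and Grhl families and Trp63, 9 rose in the mean of both edited lines by limma (7 by edgeR and 9 by DESeq2), where 4.01% of all genes rose, with a median of 0.41 beside 0.04 over all genes. This list and those of the paragraph above were chosen with earlier results of these data known. Their counts are descriptions and no independent support. By limma Grhl2 rose by 0.38 (adjusted p = 0.000239), Junb by 0.66 (adjusted p = 0.000447), Elf3 by 0.73 (adjusted p = 0.000536) and Klf5 by 0.70 (adjusted p = 0.00256). In the same comparison 5 of 6 macrophage genes rose, with a median of 0.44, and all 6 skeletal muscle genes rose, with a median of 4.70, from libraries 20 to 27. None of 8 proximal tubule genes passed (limma; 2 at p below 0.05; 0 by edgeR and 1 by DESeq2), with a median of -0.21. None of 5 mesothelium genes passed (0 at p below 0.05; 0 by edgeR and by DESeq2).

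The genes whose log2 CPM was most like that of each member over the 24 libraries are listed as a description. Points share libraries and groups, so Pearson's r is given over all libraries and, in brackets, over deviations from the group means. Krt18 was most like Cldn4, a claudin of tight junctions, with r = 0.990 (0.833), Krt19 most like Serinc2 with 0.981 (0.926) and Krt8 most like S100a11 with 0.988 (0.807). Krt7 was most like Ctsd with 0.984 (0.761), Krt23 most like Desi1 with 0.960 (0.728) and Krt20 most like Ppp2r2c with 0.922 (0.704). Krt5 was most like Fmo5 with 0.954 (0.934), and Trim29 was among its 3 most alike with 0.926 (0.927). Sprr1a was most like Anxa8 with 0.957 (0.886). Sprr2f was most like Sfn with 0.954 (0.618) and Sprr2g most like Lgals3 with 0.975 (0.572). Within groups Krt5 went with Sprr1a (0.836) and not with Krt7 (-0.38), while Krt8 went with Krt18 (0.863) and Sprr2f with Sprr2g (0.772).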

How the data were processed

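RNA-seq counts came from whole kidneys of 24 mice, 1 library each, so p-values measure the spread between mice. The authors trimmed the reads (Trim Galore 0.6.3), aligned them to GRCm38 and counted them per Ensembl gene with STAR 2.5.3a. The deposited values are raw counts per gene without normalization, and which strand column was kept is not given in the sources used here. Groups follow the deposited genotype labels, and 0 columns were unused. The symbol was missing for 343 of 54532 genes (at most 0.0261% of a library).

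The main test was limma-trend (R 4.3.3, limma 3.58.1) on log2 CPM from library totals (edgeR 4.0.16, prior count 2), over the 22570 genes whose mean log2 CPM was -3 or more. A model with 1 mean per group was fitted to all 24 libraries. Tests were two-sided with Benjamini-Hochberg adjustment over all genes, called at 0.05. Alternatives were TMM and DESeq2 (1.42.0) scaling, no filter, a prior count of 0.5, edgeR and DESeq2 tests, only the compared groups, sex (14 female and 10 male libraries by Xist and Ddx3y) or libraries 20 to 27 as a covariate, those libraries alone or left out, and each library left out. The script was tested on simulated data. Libraries of a group differed beyond sampling noise (chi-square per degree of freedom 8.45 to 48.2 over 39 pairs).

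Members and gene lists were chosen with earlier results of these data known. All 10 members are named. Of other keratins, Sprr genes and lists, up to 4 genes with the lowest adjusted p in the mean of both edited lines are named, with the most abundant other keratins and Sprr genes, and for likeness the most similar genes. Totals of 20.4 to 30.8 M counts set the precision of low counts. The result of 1 list of kidney marker genes is not reported here.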

Additional observations from a re-analysis of the deposited data

Results flagged for a closer look

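RC/- D53 replicate 27 stood apart from the other 4 libraries of its group for 3 members: Krt18 was 230.6 CPM (the others 137 to 164 CPM), Krt19 was 91.4 CPM (37.2 to 47.5 CPM) and Sprr1a was 37.5 CPM (9.97 to 16.4 CPM). Each gap to the nearest library exceeded Dixon's 95% limit, 0.71 of the group's range for 5 samples. The limit was applied to 30 groups of 5 libraries, and chance flags about 1 in 20 groups. The same library held the highest urothelium marker sum of its group, 123 CPM against 40.7 to 62.1 CPM in the others, and the part of this in the 3 values was not tested. Without replicate 27, 4 members rose in the D53 line, as with it.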

How the results depend on the processing

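No paired analysis was possible because the sample labels name no litter or pair, and replicate numbers only run on from group to group. Whether mice shared litters could not be examined. The number of members called moved by more than 1.5 times in 2 cases: with libraries 20 to 27 as a covariate, 3 members in place of 5 were called in the mean of both edited lines, and in only libraries 20 to 27, 0 in place of 2 were called between RC/- D53 and RC/- D18, with 8 libraries in the fit. Leaving out each library gave 4 to 6 members in the mean of both lines, 4 to 5 in the D53 line, 2 between RC/- D53 and RC/- D18, and 0 in the other comparisons. Over the alternatives other than leaving out 1 library at a time, 6 of 101 member calls were lost and none reversed: Krt7 in the mean of both lines with DESeq2 size factors (0.26, adjusted p = 0.0559), edgeR (0.26, adjusted p = 0.0619) and the covariate (0.41, adjusted p = 0.0898), Krt23 with the covariate (0.75, adjusted p = 0.104), and Krt8 and Krt18 in only libraries 20 to 27. The cause was not tested. The unedited differences of Krt8 moved to 1.43 from RC/+ and, for RC/- D18 against RC/-, from -1.52 to -1.40 with TMM and -1.41 with DESeq2 size factors. Other unedited differences moved by less than the spread between replicates. Over all genes, calls in the D18 line went from 60 to 37 with TMM, DESeq2 size factors or edgeR, 12 with only the compared groups, 11 with the covariate, 3 outside libraries 20 to 27 and 143 with the DESeq2 test. With the covariate they went from 587 to 287 in the D53 line, from 1028 to 405 in the mean of both lines and from 60 to 163 between RC/- D53 and RC/- D18, where the DESeq2 test gave 276. Between RC/+ D53 and RC/+ D18 they were 0 to 5 in place of 1. Counts of 0 to 20 limit every statement on Sprr2f in edited mice.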
